A study of Mus musculus with 8 samples.

Results

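In a cell that carries 1 chromosome set from each of 2 mouse strains, RNA reads that cover a strain difference show which parental copy of a gene was transcribed. This was examined for autosomal genes in differentiated mouse cells labelled as a hybrid of the strains CAST/Ei and 129/Sv/Jae, in which sequencing reads had been counted separately for the CAST and the 129 genome. The genes described are those on chromosomes 5, 7, 8, 9 and 13 with at least 40 allele-assigned reads summed over the 4 day 14 libraries and with a 129 share, the 129 reads divided by the 129 and CAST reads together, between 0.05 and 0.95. There were 2921 such genes, called members here, out of 3625 genes on these chromosomes with 40 allele reads, of 7050 genes of the tables on them and of 24421 genes in all. Because the day 14 share itself chose the members, their day 14 shares are given as descriptions without a test. Tests were made on the difference between genotypes, on the day 0 libraries and on the level of all reads.

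The cells were mouse embryonic stem cells, either wild type (WT) or mutant for HNRNPK (6A). HNRNPK binds RNA and belongs to the hnRNP proteins, and the labels do not say what 6A substitutes. Both genotypes were sampled undifferentiated on day 0, after growth on irradiated mouse embryonic fibroblast feeders that were removed at harvest, and on day 14 of differentiation without leukemia inhibitory factor, as embryoid bodies kept 4 days in suspension and plated on day 5. Every group comprised 2 libraries, numbered in the labels without naming separate cultures or clones, so the spread between them may be technical. Both genotypes share the hybrid background, and the labels do not say which strain was the mother. The series' design sentence names another day for the differentiated cells, and the day of the sample labels is used.

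When both copies of a gene lie in 1 nucleus, they meet the same transcription factors and signals. A difference between their RNA levels is therefore commonly read as a difference in cis, carried by the gene's own promoter, enhancers, splice sites or transcript stability. Other known sources of unequal allele reads are imprinting, in which the parent of origin decides which copy is active, random choice of 1 copy in each cell, loss of 1 copy of a chromosome stretch, and reads of near-identical gene copies or pseudogenes that are placed on the wrong gene. None of these sources was tested here.

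The day 14 libraries held 8146684 to 11655053 counts, of which 29.3% to 31.5% were given to an allele, and the day 0 libraries held 8618779 to 15540163. A member had a median of 455 allele reads over the 4 day 14 libraries (10th percentile 81, 90th percentile 2120). The precision of a share followed that depth. Among members in stretches with both alleles (defined in the next paragraph), the SD of the share over the 4 libraries had a median of 0.142 at 40 to 99 reads, 0.0708 from 100 to under 400 reads and 0.0317 at 400 or more, against 0.132, 0.0684 and 0.0317 from counting error alone. The 2 libraries of a group nevertheless differed in share by more than counting error. The ratio of their variance to that from counting was 1.34 in WT and 1.41 in 6A on day 14. On day 0 it was 2.01 in WT and 1.45 in 6A. Cell type markers differed with the day and genotype. The summed level of 7 markers of undifferentiated cells was 4200 to 4350 CPM (counts scaled to a common library total) on day 0 and 386 to 522 on day 14. The summed level of 6 heart muscle markers on day 14 was 1370 to 1610 CPM in WT and 221 to 229 in 6A, and that of 7 neural markers was 272 to 286 and 87.3 to 109. In these bulk samples, fewer cells of a type and less RNA per cell cannot be told apart.

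Both alleles were read along most of chromosomes 5, 7, 9 and 13, but not along whole chromosomes. Each gene was placed by the median share of up to 7 covered genes on either side of it, a rule set after the data were seen, and stretches whose median was above 0.9 were called 129-only. Chromosome 13 held both alleles from its first to its last covered gene. On chromosome 5 (GRCm38 coordinates throughout) genes between 3341485 and 35739987 and from 148871584 onwards lay in 129-only stretches, with both alleles read in between. The 129-only ends of chromosome 7 reached from 3154658 to 13031035 and from 132235780 to 145284011. Those of chromosome 9 reached to 15743361 and started again at 119901616. On chromosome 8 both alleles were read from 3122061 to 84835482, and the rest, to 128733200, was 129-only. In 129-only stretches 676 of 729 covered genes (92.7%) had a share above 0.95 and so were no members. On the other chromosomes of the series 78.4% of 8765 covered genes, X-linked genes included, had a share above 0.95, so most covered genes of the series were read as 129 alone in spite of the hybrid label. Covered genes of the 129-only stretches had a median share of 0.988 to 0.993 in each of the 8 libraries.

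**Figure D1:**
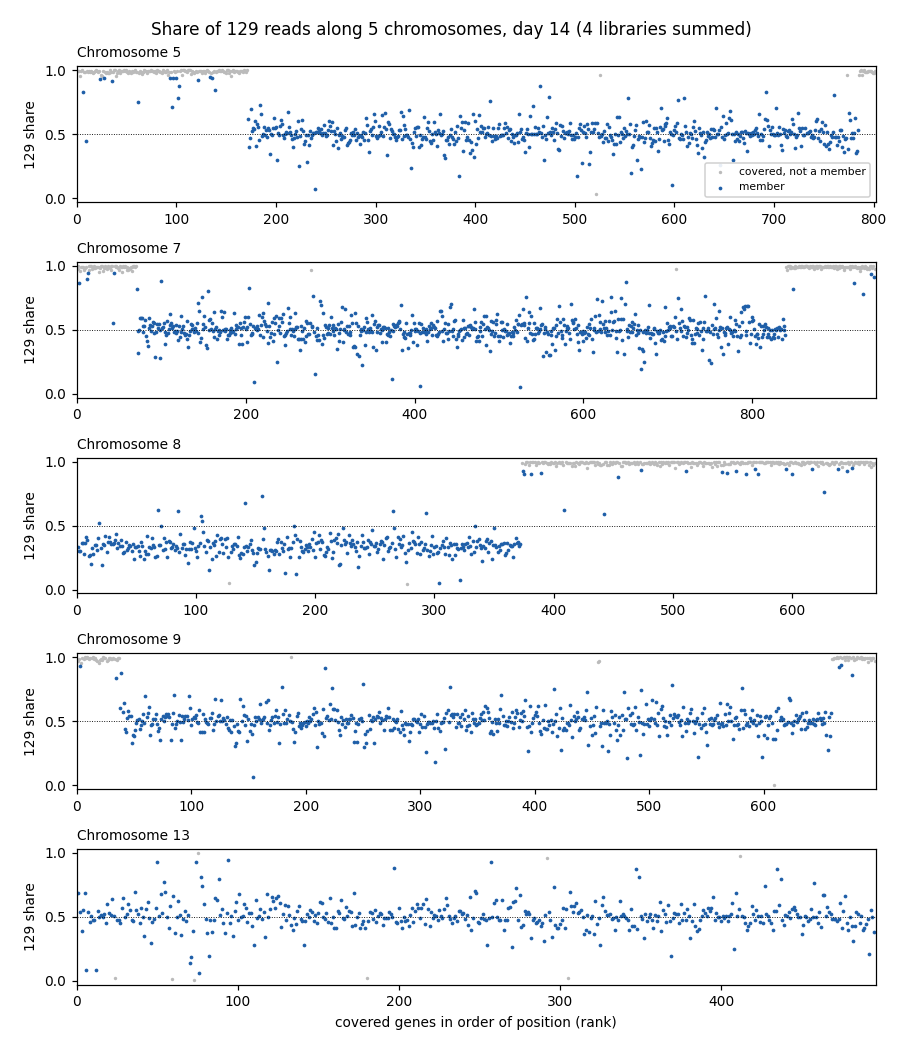
Share of 129 reads on day 14 (vertical axis, 4 libraries summed) for covered genes in order of position along 5 chromosomes (horizontal axis, rank). Blue points are members and grey points are covered genes outside the share limits; members lie around 0.5 on most of chromosomes 5, 7, 9 and 13 and around 0.339 on the first part of chromosome 8, and the grey runs near 1 are the 129-only stretches.

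Of the 2921 members, 2852 lay in stretches with both alleles, 53 in 129-only stretches, and 16 had no position in GENCODE M21 by their symbol and chromosome. By chromosome there were 631 members on chromosome 5, 779 on 7, 395 on 8, 627 on 9 and 489 on 13. Outside chromosome 8, the typical member was read evenly from both copies. Of 2482 members there in stretches with both alleles, 2014 (81.1%) had a share between 0.4 and 0.6, 41 had a share of 0.75 or more (129-skewed), 33 had a share of 0.25 or less (CAST-skewed), and 394 lay between these classes. The most deeply read even members were Nedd4, a ubiquitin ligase, with 30403 allele reads and a share of 0.508, Tpm1, a tropomyosin of muscle and the cytoskeleton, with 19428 reads and a share of 0.491, and Serpinh1, a collagen chaperone, with 19204 reads and a share of 0.485. The 4 libraries gave 0.501, 0.501, 0.476 and 0.487 for Tpm1, and 0.493, 0.484, 0.499 and 0.468 for Serpinh1. Nedd4 gave 0.5, 0.507, 0.520 and 0.506, and has many near-identical stretches elsewhere in the annotation. Kit, the receptor of stem cell factor, was likewise even at 0.508, 0.477, 0.511 and 0.468.

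On chromosome 8 the balance was shifted toward CAST for nearly every gene, by a similar amount. The median share of its 370 members in the stretch with both alleles was 0.339, with a 10th percentile of 0.261 and a 90th percentile of 0.411. The library medians were 0.333 and 0.337 in WT and 0.340 and 0.338 in 6A, while the members of the other 4 chromosomes had medians of 0.5, 0.5, 0.502 and 0.505. All 4 libraries were below 0.5 for 326 of the 370 members (88.1%), against 442 of 2482 (17.8%) elsewhere. The day 0 libraries, which did not choose the members, gave the same order, with medians of 0.378 to 0.391 on chromosome 8 and 0.551 to 0.571 on the other 4. The copy number of the chromosomes was not tested. Where a fold is given below for a gene, it is relative to its own chromosome's median ratio of 129 to CAST, and a raw share of a chromosome 8 gene is to be read against 0.339.

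**Figure D2:**
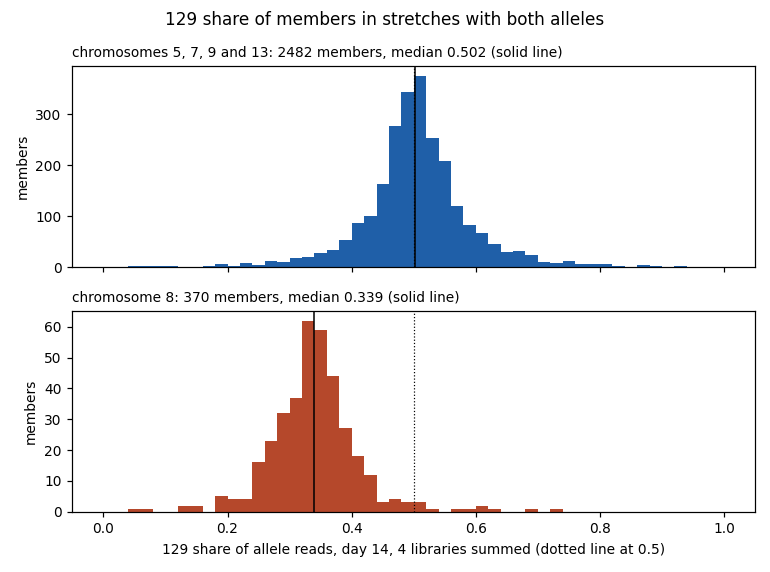
Number of members (vertical axis) by 129 share on day 14 (horizontal axis, bins of 0.02) in stretches with both alleles, for chromosomes 5, 7, 9 and 13 together and for chromosome 8. The solid line marks each median, 0.502 above and 0.339 below, and the dotted line marks 0.5.

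Against that background 5 members of chromosome 8 stood above 0.5 in all 4 libraries. Jund, a subunit of the AP-1 transcription factor, had 3936 reads and shares of 0.627, 0.598, 0.624 and 0.593, 3.05-fold toward 129 relative to the chromosome 8 median. Golga7, a Golgi protein with 2 near-identical copies, had 2334 reads and a summed share of 0.614. Nek3, a NIMA-related kinase, had shares of 0.634, 0.585, 0.712 and 0.549 (240 reads, 3.18-fold). Bst2, which tethers budding virus particles to the cell surface, had 0.655, 0.540, 0.610 and 0.587 (249 reads, 2.90-fold). Triml1 was the other one, at a summed share of 0.730 with 137 reads. No member of chromosome 8 with both alleles reached 0.75, and 24 were at 0.25 or less.

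Many of the strongly skewed members had near-identical copies elsewhere in the genome, in which case a read can be placed on the wrong gene. A copy was counted where another annotated gene elsewhere shared at least 150 aligned bases at 95% identity or more, a measure added after the data were seen. For a gene shorter than 150 bases no copy could be counted. Outside chromosome 8, 19 of the 41 129-skewed members (46.3%) and 18 of the 33 CAST-skewed members (54.5%) had a copy, against 218 of the 2014 even members (10.8%) and 89 of the 394 between the classes (22.6%). The part of these copies in the shares was not tested. The median gene length was 8700 bases for 129-skewed, 8500 for CAST-skewed and 26500 for even members. Their median number of allele reads was 192, 342 and 505. Results are therefore given first for members with no such copy, in stretches with both alleles and more than 7 covered genes from a change of stretch.

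Toward CAST, single-copy members with at least 200 reads included genes of translation, amino acid transport and cell adhesion, chosen by the largest fold from their chromosome's median. Eif3f, a subunit of the translation initiation factor eIF3 (chromosome 7, 108934417 to 108942951), had shares of 0.158 and 0.159 in WT and 0.258 and 0.235 in 6A (1043 reads, SD 0.052). That is 4.06-fold toward CAST, and all 4 libraries lie far below the neighbours' median of 0.482. Hist1h1d, a linker histone, had 0.084, 0.064, 0.066 and 0.022 (342 reads), 16.0-fold toward CAST. Its level of all reads was 220 to 363 CPM in these libraries, so only a small part of its reads was given to an allele. The median member had 37.7% of its reads given to an allele. Aga, a lysosomal enzyme that breaks down glycoproteins, had 0.131, 0.139, 0.107 and 0.117 on chromosome 8 (337 reads), 3.67-fold beyond that chromosome's own median. Slc1a5, a glutamine transporter, had 0.307, 0.234, 0.282 and 0.319 (984 reads, 2.50-fold). Khdc3, a maternal factor of the early embryo, had 0.333 and 0.319 in WT and 0.205 and 0.229 in 6A (235 reads, 2.73-fold). Itga1, the collagen-binding integrin subunit, had 0.314, 0.309, 0.342 and 0.279 (1224 reads, 2.28-fold). Agtr1a, an angiotensin II receptor, had 0.214, 0.304, 0.276 and 0.289 (281 reads, 2.59-fold).

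Toward 129, single-copy members included enzymes of respiration and protein modification. Sdhd, a membrane anchor of succinate dehydrogenase (chromosome 9, 50596357 to 50603812), had shares of 0.902 and 0.888 in WT and 0.957 and 0.937 in 6A (586 reads, SD 0.031), 11.1-fold toward 129, while its neighbours had a median of 0.514. Hist1h2ba, a testis-type H2B histone, had 0.940, 0.960, 0.933 and 0.934 (614 reads, 15.6-fold). Mir682, a microRNA gene, had 0.842, 0.875, 0.874 and 0.918 (1282 reads, 6.97-fold). It lies within another gene on the same strand, so that reads of both cannot be told apart. Mir682 spans only 75645046 to 75645141 on chromosome 13, less than the aligned length needed to count a copy. Whether it has a copy was therefore not tested, and the counts of members without a copy include it. Pdap1 (chromosome 5, 145128769 to 145140238) had 0.765, 0.828, 0.793 and 0.832 (471 reads, 4.11-fold). Tpst1, a tyrosine sulfotransferase of the Golgi, had 0.798, 0.738, 0.755 and 0.792 (655 reads, 3.26-fold). Prkcb, a protein kinase C, had 0.821, 0.757, 0.674 and 0.812 (212 reads, 3.21-fold). Trim68, a ubiquitin ligase of the TRIM family, had 0.763, 0.748, 0.811 and 0.688 (447 reads, 3.01-fold). In each of these genes the 4 libraries stayed on 1 side of 0.5, and WT and 6A overlapped except in Eif3f, Khdc3, Aga, Sdhd and Hist1h2ba, whose genotype difference did not pass the test given further on.

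Promoters of 4 single-copy genes with a large fold, 2 in each direction, are shown so that the sequence in which a cis difference could lie can be read beside the shares. They are the reference strain's sequence, not that of 129 or CAST, from RefSeq (GRCm38.p6), 250 bases before to 50 after the start, 5′ to 3′ on the gene's strand, with each CG in capitals. Hist1h1d, Aga, Hist1h2ba and Mir682, whose folds are also large, are named only. The Eif3f promoter (chr7:108934165-108934464, plus strand) holds 12 CG and the Khdc3 promoter (chr9:73102148-73102447, plus strand) none. The Sdhd promoter (chr9:50603800-50604099, minus strand) holds 29 and the Pdap1 promoter (chr5:145139976-145140275, minus strand) 31. The Khdc3 bases shown lie within the gene's span in GENCODE M21 (73101836 to 73104438), which starts further upstream. Its count of CG therefore holds for the RefSeq start only.
Eif3f: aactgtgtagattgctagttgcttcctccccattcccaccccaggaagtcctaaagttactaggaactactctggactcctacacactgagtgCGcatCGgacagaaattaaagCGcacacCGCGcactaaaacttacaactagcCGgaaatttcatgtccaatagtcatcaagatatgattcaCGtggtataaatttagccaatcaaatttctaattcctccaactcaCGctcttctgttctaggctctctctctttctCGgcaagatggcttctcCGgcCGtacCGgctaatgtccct
Khdc3: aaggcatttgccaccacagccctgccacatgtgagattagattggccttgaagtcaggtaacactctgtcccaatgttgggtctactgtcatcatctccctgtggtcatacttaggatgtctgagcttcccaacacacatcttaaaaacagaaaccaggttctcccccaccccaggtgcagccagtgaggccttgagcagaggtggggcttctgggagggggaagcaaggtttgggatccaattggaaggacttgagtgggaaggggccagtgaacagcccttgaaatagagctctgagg
Sdhd: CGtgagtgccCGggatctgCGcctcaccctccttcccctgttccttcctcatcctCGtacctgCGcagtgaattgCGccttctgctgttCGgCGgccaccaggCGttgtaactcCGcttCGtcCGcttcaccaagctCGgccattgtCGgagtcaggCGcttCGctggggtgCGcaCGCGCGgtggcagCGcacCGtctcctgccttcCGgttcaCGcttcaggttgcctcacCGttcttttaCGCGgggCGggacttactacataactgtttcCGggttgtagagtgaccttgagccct
Pdap1: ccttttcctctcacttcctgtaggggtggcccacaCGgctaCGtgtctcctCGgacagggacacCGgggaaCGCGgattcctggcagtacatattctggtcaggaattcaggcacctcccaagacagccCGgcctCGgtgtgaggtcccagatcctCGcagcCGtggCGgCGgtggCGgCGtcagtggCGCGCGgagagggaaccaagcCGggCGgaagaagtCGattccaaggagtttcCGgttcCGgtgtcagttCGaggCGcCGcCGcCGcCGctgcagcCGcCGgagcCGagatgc

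The motif searched was CG, which reads the same on both strands. Of all 32851 promoters in RefSeq, 94.6% hold at least 1 CG, with a median of 7. Of the 2854 promoters of members 99.3% do, with a median of 20, and 2278 members had a promoter in the table. Taking the promoter with most CG for each gene, the median was 19 in 129-skewed, 16 in CAST-skewed and 23 in even members outside chromosome 8. Of the promoters shown, the CAST-leaning pair holds fewer CG than the 129-leaning pair. The promoters of Tpst1, which leans to 129, and Itga1, which leans to CAST, hold 4 and 12 CG and do not follow that split.

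**Figure D3:**
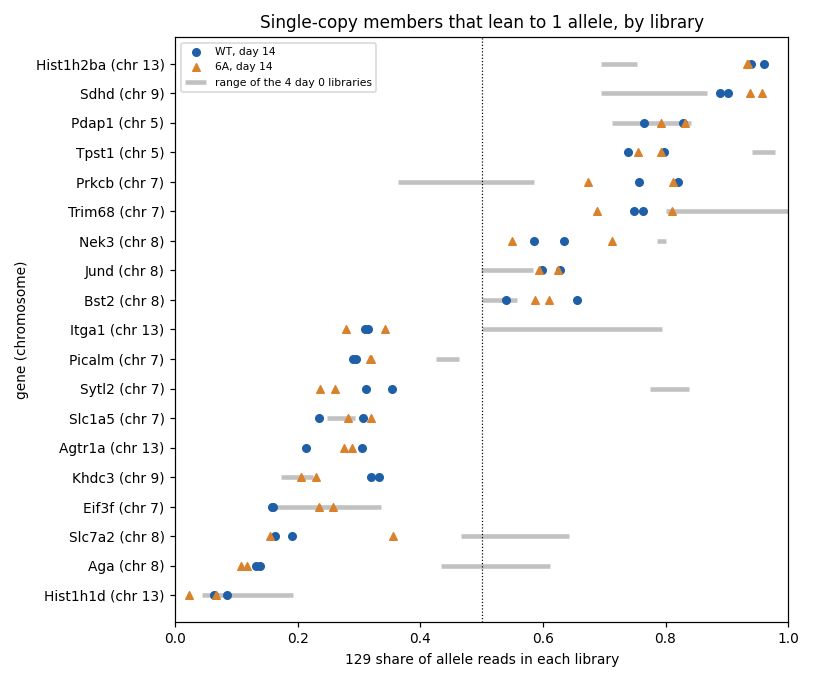
129 share of allele reads (horizontal axis) in each library for single-copy members that lean to 1 allele (vertical axis, chromosome in brackets). Circles are WT and triangles 6A on day 14, and grey bars span the 4 day 0 libraries where these held 40 reads or more together; Sdhd and Hist1h2ba lie near 0.9 and above, Eif3f, Aga and Hist1h1d below 0.3.

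Some adjacent genes leaned the same way. Picalm, a clathrin adaptor, and Sytl2, a vesicle trafficking protein, follow each other on chromosome 7 and both had a share of 0.305, from 5434 and 561 reads. On chromosome 8, Slc7a2, a cationic amino acid transporter, and Pdgfrl had shares of 0.193 and 0.212, and Sh2d4a and Csgalnact1, an enzyme of chondroitin sulfate synthesis, had 0.188 and 0.199. On chromosome 5, Evc and Evc2, partner proteins of the primary cilium, had 0.732 and 0.656. Eif3f was followed by Tub at 0.351 (111 reads), and Elovl7 and Depdc1b on chromosome 13 had 0.675 and 0.672 (120 and 256 reads). Pairs were listed where neighbouring covered genes of at least 100 reads both leaned the same way by 0.8 or more on the log2 scale from their chromosome's median. Pairs that leaned opposite ways were not listed. Whether neighbours lean the same way more often than other genes was not tested. In Slc7a2 the libraries did not agree closely, at 0.190 and 0.162 in WT and 0.154 and 0.356 in 6A (2.14-fold toward CAST over the 4 libraries).

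Several deeply read members, above the 90th percentile of 2120 allele reads, were read mostly from 1 allele. Hspa8, Actb, Rplp0 and Hnrnpk, described here, had near-identical copies. Picalm (5434 reads, 0.305) and Igf2 (4359 reads, 0.865, in a 129-only stretch) had none. Hspa8, the constitutive heat shock protein 70, had 7649 reads and shares of 0.072, 0.060, 0.058 and 0.071, with 8 copies. Actb, cytoplasmic beta-actin, had 43804 reads and 0.214, 0.233, 0.209 and 0.230, with 2 copies. Rplp0, the ribosomal stalk protein, had 11167 reads and 0.777, 0.799, 0.789 and 0.806, with 5 copies. Hnrnpk, the gene mutated in the 6A cells (chromosome 13, 58391142 to 58403343), had 2846 reads and shares of 0.894 and 0.930 in WT and 0.917 and 0.951 in 6A, with 2 copies, while its neighbours had a median of 0.490. The level of all Hnrnpk reads was 485 ± 15.1 CPM in WT and 366 ± 26.3 in 6A on day 14 (SD, 2 libraries each; log2 difference -0.40 ± 0.12 SE, edgeR adjusted p = 0.043), and the counts do not show the mutation itself. Actb, Rplp0 and Hnrnpk were chosen after their values were seen, whereas Hspa8 is among the 10 lowest shares of members with at least 200 reads. Also among these lowest shares were Zfp617 (0.052, 230 reads), Rpl18 (0.065, 735), Rpl9 (0.073, 1102), Tom1 (0.075, 200), Fbl (0.089, 895) and Chchd2 (0.104, 859), beside Hist1h1d and Aga. Of the lowest shares named, all but Hist1h1d and Aga had a copy.

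Of the gene lists examined, cytosolic ribosomal proteins had the lowest share of even members. Of its 20 members with both alleles, 19 had a copy, 6 were even (against 81.1% of all members outside chromosome 8), 3 were 129-skewed and 5 CAST-skewed. Rpl4 with 20037 reads was at 0.284, Rps3 with 10967 reads at 0.411 and Rpl13a with 8173 reads at 0.693. Histone genes, a list added after the data were seen, had 38 members on chromosome 13, of which 29 had copies, and 17 were even (44.7%). Genes of a single array went opposite ways, with Hist1h4i at 0.139 (3489 reads) and Hist1h2bc at 0.197 (2575 reads), but Hist1h2bl at 0.769 (1828 reads) and Hist1h2ab at 0.8 (1118 reads). The linker histones Hist1h1a, Hist1h1e and Hist1h1c, with 9320, 7361 and 3808 reads and no copy, were even at 0.530, 0.483 and 0.472. On day 0 the shares were 0.140 for Hist1h4i and 0.767 for Hist1h2bl.

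The other lists lay nearer to all members. Zinc finger proteins had 98 of 124 even (79.0%), with 2 129-skewed and 1 CAST-skewed; Zfp59 was at 0.824, 0.824, 0.795 and 0.889, with 6 copies, and Zfp958 on chromosome 8 at 0.159, 0.193, 0.241 and 0.189 (2.11-fold toward CAST), with none. Genes of mitochondrial respiration and the mitochondrial ribosome had 25 of 36 even (69.4%); beside Sdhd, Cox7c, a cytochrome oxidase subunit with 3 copies, was at 0.192. Matrix, integrin and basement membrane genes had 20 of 29 even (69.0%), with Col6a6 at 0.781 and Itga11, a collagen receptor subunit, at 0.146, 0.214, 0.184 and 0.158 (194 reads). Innate immune genes had 24 of 33 even (72.7%), with Trim12c at 0.877 and 3 copies. Detoxification enzymes had 7 of 10 even and proteasome subunits 6 of 8. Of genes that mark the cell types of the culture, heart muscle genes had 10 of 12 even (83.3%), neural genes 14 of 16 (87.5%) and endoderm genes 4 of 7. Afp, the fetal serum protein of yolk sac and liver, was even at 0.573, 0.563, 0.519 and 0.588 with 1072 reads. Hspb6, a small heat shock protein of muscle, was the heart list's skewed gene at 0.75, 0.729, 0.857 and 0.784 (191 reads).

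The 8 members on chromosome 7 from the lists of imprinted genes that lay in the stretch with both alleles were all even by their summed day 14 share. A gene of these lists read from 1 allele alone would lie outside the share limits and so be no member. Ndn was at 0.450, 0.547, 0.415 and 0.505, Peg12 at 0.414, 0.514, 0.472 and 0.364, Mkrn3 at a summed 0.507, Snhg14 at 0.488, Inpp5f at 0.440, Ampd3 at 0.513, Ube3a at 0.548 and Atp10a at 0.425. Atp10a was at 0.492 and 0.481 in WT and at 0.386 and 0.333 in 6A. Mkrn3 had only 73 reads, with libraries from 0.357 to 0.6, and Snhg14 had 20 copies. On day 0 Ampd3 was at a summed 0.860 (121 reads) and Ndn at 0.708 (96 reads), and the others were at 0.474 to 0.570. Igf2, the fetal growth factor, lay in a 129-only stretch and was read at 0.870, 0.857, 0.882 and 0.855 from 4359 reads, below its neighbours.

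Members inside 129-only stretches had CAST reads where the genes around them had almost none. Of the 53, 48 had a share of 0.75 or more, among them Epn1 (0.947), Rps9 (0.946), Cmip (0.945), Rhou (0.945), Ppp1cb (0.944) and Foxf1 (0.941), just under the upper limit. The other 5 were U2af2, a splicing factor, at 0.555 from 2392 reads, with 2 copies; Papd5 at 0.619 from 286 reads; Polr2c at 0.588 from 80 reads; Dnajb6, a chaperone, at 0.709 from 327 reads; and Mterf1a at 0.443 from 79 reads. Of these 5, Papd5 had no copy. Just outside the upper limit were Nudt21 (0.951), Brsk1 (0.952) and Nfatc3 (0.952), all in 129-only stretches, and Arv1 (0.95) was just inside. Just outside the lower limit were Ppp1cc (0.031) and Gpr137b-ps (0.021), and Zfp617 and Hist1h1d (0.058) were just inside. In stretches with both alleles 17 covered genes lay above 0.95 and 9 below 0.05, and so were no members; 7 of the 17 lay within 7 covered genes of a change of stretch.

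No member passed the test of a difference in allele balance between 6A and WT. In a model of allele reads over all 8 libraries (edgeR quasi-likelihood test, 12390 genes of all chromosomes), 0 of 2921 members had a 129 to CAST ratio that differed between 6A and WT on day 14 at an adjusted p under 0.05, against 0.0404% of all genes tested, which are Flna, Col4a6, Sh3bgrl and Wbp5 on the X chromosome and Ap3s1. At an unadjusted p under 0.05 there were 74 members (2.53%, against 3.75% of all genes), and DESeq2 found 0 adjusted and 9 unadjusted. Among the 1548 members with both alleles and at least 400 reads, the absolute 6A to WT difference in share had a median of 0.0232. The single libraries of a genotype, with fewer reads than the summed pairs, differed by a median of 0.0321 in WT and 0.0323 in 6A. The genotypes differed by less than 0.05 for 1250 of the 1548 (80.7%), and by more than 0.15 for 4. These were Cap2, an actin-binding protein of heart and brain, at 0.570 and 0.642 in WT and 0.824 and 0.796 in 6A (edgeR adjusted p = 0.38), P4ha3, a collagen prolyl hydroxylase, at 0.259 and 0.262 and at 0.383 and 0.463 (adjusted p = 1.0), Clpx at 0.388 and 0.488 and at 0.589 and 0.620 (adjusted p = 1.0), and Prom1 at 0.606 and 0.553 and at 0.314 and 0.473 (adjusted p = 1.0). With 2 libraries against 2, the smallest two-sided p that an exact permutation test could give for 1 gene was 0.333. On simulated allele counts with a spread set beforehand, the same test called 34 of 100 members whose log2 ratio was changed by 1. Of 100 members changed by 2, it called 65. Many differences of that size would therefore be missed, and the absence of calls does not show equal allele balance.

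**Figure D4:**
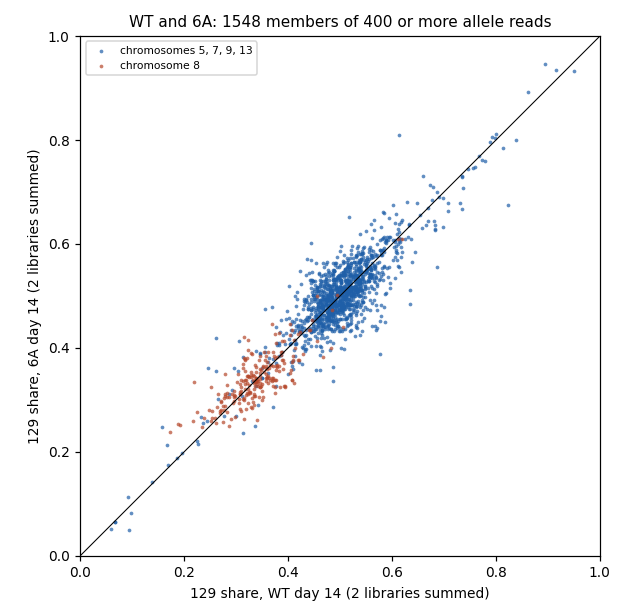
129 share in WT (horizontal axis) and in 6A (vertical axis) on day 14, each from 2 libraries summed, for the 1548 members with both alleles and at least 400 allele reads. The line marks equal shares; most points, on chromosome 8 (red) and on the other 4 chromosomes (blue), lie close to it.

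Eif3f had log2 ratios higher by 0.80 ± 0.29 in 6A (SE, edgeR unadjusted p = 0.0058, adjusted p = 1.0), and Sdhd by 1.07 ± 0.53 (unadjusted p = 0.045, adjusted p = 1.0). Cacna1a, a neuronal calcium channel on chromosome 8, was at 0.208 and 0.192 in WT and 0.618 and 0.522 in 6A, from 23 to 34 reads a library (edgeR adjusted p = 0.59). Tyms, thymidylate synthase, in a 129-only stretch of chromosome 5, was at 0.984 and 0.977 in WT and 0.926 and 0.901 in 6A (edgeR adjusted p = 0.38). Cacna1a and Tyms were chosen for a small genotype p, which favours genes whose 2 libraries of a genotype lie close together. None of these genes passed the test across all genes.

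The level of all reads differed between the genotypes for some members, without a larger difference in their shares. By edgeR on all reads, 113 members were called higher in 6A on day 14 (3.87%, against 5.33% of all genes tested) and 221 lower (7.57%, against 8.31%). Among members with 400 or more allele reads, the median absolute share difference between genotypes was 0.0237 for the 148 called genes and 0.0232 for the 1400 others. Sorbs2, an adaptor protein of muscle and heart, fell by 2.22 ± 0.19 on the log2 scale (SE, edgeR adjusted p = 4.9e-06), with 73.4 ± 5.78 CPM in the WT libraries and 15.7 ± 3.27 in the 6A libraries (SD of 2), while its shares were 0.305, 0.309, 0.318 and 0.313. Adgrv1, a large adhesion receptor, fell by 2.93 ± 0.17 on the log2 scale (edgeR adjusted p = 1.9e-07), with shares of 0.502 and 0.477 in WT and 0.222 and 0.463 in 6A, the last pair from 45 and 41 reads. Actn2, sarcomeric alpha-actinin, fell by 2.30 ± 0.20 (edgeR adjusted p = 6.7e-06), with shares of 0.680, 0.567, 0.538 and 0.636. Upk3b, a mesothelial membrane protein, rose by 1.48 ± 0.13 (edgeR adjusted p = 6.7e-06), with 74.2 ± 6.59 CPM in the WT libraries and 207 ± 10.9 in the 6A libraries, and with shares of 0.538, 0.472, 0.551 and 0.535. Acp5, an acid phosphatase of macrophages and osteoclasts, rose by 2.53 ± 0.20 on the log2 scale (edgeR adjusted p = 3.3e-06), with shares of 0.300, 0.636, 0.541 and 0.580, the first pair from 20 and 22 reads. In the embryonic globin Hbb-bh1, which rose by 5.93 ± 0.28 (edgeR adjusted p = 5.1e-08), the 6A libraries were at 0.562 and 0.622 from 112 and 90 reads, and the WT libraries held 2 and 4 reads. These counts depended on single libraries. Without either WT day 14 library 44 members were called higher, without either 6A day 14 library 56, and without WT day 0 library 1 or 2, 183 or 180. Members called lower were 123 and 127 without WT day 14 library 1 or 2, and 132 and 130 without 6A day 14 library 1 or 2.

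In the undifferentiated cells, which did not enter the choice of members, most strongly skewed members were called the same way. The exception was CAST-skewed members without a copy, of which 13 of 33 were. The day 0 ratio of 129 to CAST, tested against equal alleles in the same model, was called 129-higher for 1217 members (41.7%, against 75.9% of all genes tested, most of them read as 129 alone) and CAST-higher for 524 (17.9%, against 6.39%). Centred on each chromosome's median in stretches with both alleles, the split was 854 and 706. Of the 41 129-skewed members, 34 were called 129-higher on day 0 (33 after centring), and of the 57 CAST-skewed members, 37 were called CAST-higher (35 after centring). Among skewed members without a copy, 17 of 22 (77.3%) and 13 of 33 (39.4%) were called the same way. These 2 counts are not centred, and on chromosome 8 the day 0 median share was itself 0.383. Of 2060 even members, 920 were called 129-higher and 215 CAST-higher, or 546 and 497 after centring. Eif3f had a log2 ratio of -1.87 ± 0.12 on day 0 (SE, edgeR adjusted p = 9e-51), Slc1a5 of -1.42 ± 0.09 (edgeR adjusted p = 3.7e-59), and Sdhd of 1.57 ± 0.14 (edgeR adjusted p = 1.3e-29). Pdap1 had 1.87 ± 0.13 (edgeR adjusted p = 2.9e-48) and Hnrnpk 3.70 ± 0.10 (edgeR adjusted p = 7.8e-285). Aga did not differ from equal alleles on day 0, with a summed share of 0.475 (log2 ratio -0.14 ± 0.25, edgeR adjusted p = 0.63), against 0.122 on day 14. Relative to the chromosome 8 median its day 0 log2 ratio was 0.52 (edgeR adjusted p = 0.049). Prkcb did not either, at 0.543 from 70 reads (log2 ratio 0.24 ± 0.46, edgeR adjusted p = 0.64).

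Called the opposite way on day 0 was 1 of the 129-skewed members, Col6a6 (12 day 0 reads), and 4 of the CAST-skewed ones. Itga11 had a share of 0.180 on day 14 and 0.984 on day 0, Tlr3, a receptor for double-stranded RNA, 0.156 and 0.919, Csgalnact1 0.199 and 0.698, and Pxylp1 0.215 and 0.695. A larger set differed in share between the days, whether or not the side of 0.5 changed. Of 1839 members with both alleles and at least 200 reads on each day, 179 (9.73%) had a share lower by more than 0.2 on day 14 than on day 0, and 13 (0.707%) a share higher by more than 0.2. These counts are not centred, and outside chromosome 8 the library median shares were 0.551 to 0.571 on day 0 and 0.5 to 0.505 on day 14. Cpe, a carboxypeptidase that processes prohormones, was at 0.307, 0.309, 0.276 and 0.288 on day 14 and at 0.959 to 0.991 on day 0. Cspg4, a proteoglycan of pericytes and other mesenchymal cells, was at 0.343, 0.319, 0.283 and 0.411 and at 0.947 to 0.994. Ednra, an endothelin receptor, was at 0.327, 0.329, 0.294 and 0.390 and at 0.947 to 1.000. Cpe and Ednra are on chromosome 8, and their day 14 shares lay 1.22-fold and 1.02-fold from that chromosome's median ratio. Itga1 and Sytl2, CAST-leaning on day 14, had shares of 0.649 and 0.819 on day 0. In the other direction, Serpinh1 was at 0.256 on day 0 and 0.485 on day 14, Ctsl, a lysosomal protease with 42 copies, at 0.225 and 0.475, Ssh1, a cofilin phosphatase, at 0.119 and 0.434, and Acacb, an acetyl-CoA carboxylase, at 0.327 and 0.661. The difference between the days was not tested.

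Y-linked genes and fibroblast markers, which feeder cells can contribute, differed between the days in opposite directions. The summed level of 6 Y-linked genes was 26.1 to 26.6 CPM in WT and 40.9 to 45.2 in 6A on day 0, with Usp9y and Zfy1 at 0 in both, and 0 to 0.101 CPM on day 14, with at least 5 of the 6 genes at 0 in each genotype. The library median shares on the other 4 chromosomes were 0.551 and 0.553 in WT and 0.568 and 0.571 in 6A on day 0. All 6 mesenchyme and fibroblast markers were detected in every group and summed to 1180 to 1840 CPM on day 0 and to 9620 to 14200 on day 14. The part of feeder cells in the day 0 shares was not tested.

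**Figure D5:**
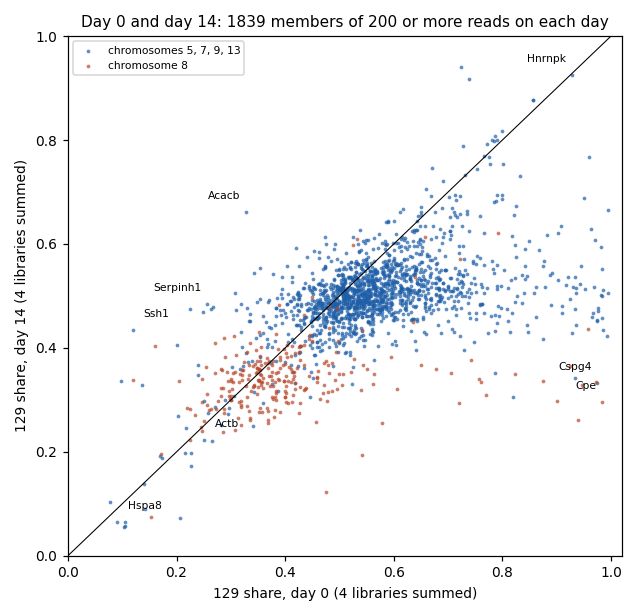
129 share on day 0 (horizontal axis) and on day 14 (vertical axis), 4 libraries summed each, for the 1839 members with both alleles and at least 200 reads on each day, with chromosome 8 in red and the other 4 chromosomes in blue. The line marks equal shares; Hspa8, Actb and Hnrnpk lie near it, Cpe and Cspg4 far below it at the right, and Ssh1, Serpinh1 and Acacb above it.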

How the data were processed

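RNA was sequenced from 8 libraries, 2 for each of 4 groups (WT and 6A on days 0 and 14), as 150-base paired-end reads from directional libraries of RNA depleted of ribosomal RNA. Per the submitters' processing notes, cutadapt 1.4.2 and STAR 2.7.10a were used with genome mm10 (GRCm38). The counter, its strand setting, the annotation and how reads were assigned to alleles are not stated there. The authors deposited raw counts per gene of all reads, of CAST reads and of 129 reads.

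The members and gene lists were chosen with earlier results of these data known. Shares were computed from summed counts. Allele counts entered edgeR 4.0.16 (R 4.3.3) as 2 columns a library, with library terms and a 129 to CAST term per group, on the 12390 genes with at least 40 allele reads on day 14 (4 residual degrees of freedom); genes were called at a Benjamini-Hochberg adjusted p under 0.05. Counts of all reads were fitted in edgeR after filterByExpr (15458 genes) with TMM scaling. Fits were tested on simulated data. Symbols were matched to GENCODE M21 (16 members had no match), and copies were found with minimap2 2.31 among its transcripts. Reads without molecular identifiers are not independent molecules, so counting errors cover counting only. Named genes are the 10 highest and lowest shares, list members with the largest ratios, imprinted genes, genes at the limits, the deepest even genes, those differing most between days and, added after the data were seen, the single-copy genes with the largest fold, genes with the smallest genotype p and the largest changes in level.

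Alternatives were another test (DESeq2 1.42.0), other filters and share limits, centring, a replicate block and leaving out each replicate. Some items are not reported here.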

Additional observations from a re-analysis of the deposited data

Results flagged for a closer look

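Members whose 4 day 14 libraries all lay on 1 side of an even share and whose 4 day 0 libraries all lay on the other were examined among the genes named for the largest difference between the days. The difference itself was not tested. Of 1839 members with both alleles and at least 200 reads on each day, 121 lay below 0.5 on day 14 and above it on day 0 in this way, and 9 the other way round. These counts are not centred. Outside chromosome 8 the library median shares were themselves 0.551 to 0.571 on day 0 and 0.5 to 0.505 on day 14. Cpe had a summed 129 share of 0.295 on day 14 and 0.983 on day 0, Fam149a 0.261 and 0.940, Ednra 0.335 and 0.973, and Cspg4 0.333 and 0.974. Adgra3 had 0.313 and 0.987; the tables place this symbol on chromosome 8, whereas GENCODE M21 places it on chromosome 5. Acacb went the other way, with 0.661 on day 14 and 0.327 on day 0. Cpe, Fam149a, Ednra and Adgra3 are on chromosome 8 in the tables, where 88.1% of members with both alleles lay below 0.5 in all 4 day 14 libraries. Their day 14 ratios lay 1.22-fold, 1.45-fold, 1.02-fold and 1.13-fold from that chromosome's median, so for these genes the side of 0.5 on day 14 is that of the chromosome.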

How the results depend on the processing

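Members with a share of 0.75 or more numbered 50 with limits of 0.1 to 0.9 and 22 in stretches with both alleles without a copy, where those at 0.25 or less numbered 33. Leaving out single day 14 libraries gave 82 to 93 and 51 to 64. For the genotype difference in allele ratio, 0 members were called under every alternative run. Day 0 calls at an absolute log2 ratio over 1 were 597 toward 129 and 181 toward CAST, and centring on the autosomal median gave 839 and 836. For the level of all reads, members called higher in 6A were 184 with no filter and 44 to 183 leaving out single libraries, and members called lower 123 to 281. The labels do not say that a replicate number marks a shared culture or day. Deviations of same-numbered libraries correlated at 0.00738 to 0.0339 for allele ratio; for level they correlated at 0.114 to 0.385 in 5 of 6 pairs of groups and at 0.0118 in the other, so a shared effect on level may exist, and the fits without a block were kept. With a replicate block, genotype calls were 0 in both directions, day 0 calls 1053 and 456, and level calls 162 and 268.

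The day 0 log2 ratio changed sign for 5 genes. Aga was 0.52 centred by chromosome and -0.33 to 0.19 leaving out single libraries, the highest without 6A day 0 library 1. Centred on the autosomal median, Slc7a2 was -0.07, Prkcb -0.04, Jund -0.08 and Bst2 -0.14. Slc7a2, Jund and Bst2 lie on chromosome 8, whose median share on day 0 was 0.383. Their uncentred ratios were 0.22, 0.20 and 0.15, and centred by chromosome they kept that sign, toward 129. For Slc7a2 this is opposite to its lean on day 14. Prkcb was also -0.01 centred by chromosome, -0.04 with the replicate block and -0.21 to 0.44 leaving out single libraries, the lowest without WT day 0 library 2. The causes were not tested. Shares below 100 reads are limited by depth.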
